A study of Mus musculus with 18 samples.

Results

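The genes of prostaglandin synthesis, breakdown and reception were followed in cartilage RNA after rupture of the anterior cruciate ligament (ACL) of the knee. The set holds 10 genes of the 49184 to which the transcripts were summed. They are the cyclooxygenases Ptgs1 and Ptgs2, the terminal synthases Ptges, Ptges2 and Ptgis, the dehydrogenase Hpgd and the prostaglandin E2 receptors Ptger1, Ptger2, Ptger3 and Ptger4, taken by name, and all 10 passed the filter on low counts in every comparison.

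All animals were 12-week-old male C57Bl/6J mice without a genetic change. The right knee was loaded once until the ligament ruptured (injured), the unloaded left knee of the same mice was the contralateral control, and naïve mice were never loaded. Femoral condyle cartilage was taken at day 1 or day 7 after rupture, which gave 6 naïve libraries (labelled day 7), 3 day 1 contralateral, 3 day 1 injured, 3 day 7 contralateral and 3 day 7 injured libraries of total RNA depleted of ribosomal RNA. Each library was a pool of knees, and the sources disagree on how many mice a pool held. The paper counts 6 naïve mice and kept left and right knees in separate pools, so the 6 naïve libraries probably share mice. An n of 6 for them counts libraries and not independent sets of animals. The labels do not say which pools came from the same animals or separate batches, so p-values measure the spread between these libraries. Totals of estimated counts per library ran from 16074762 to 41794005, with a median of 25465706.

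Prostaglandins are made from arachidonic acid that phospholipases release from membranes. The cyclooxygenases turn it into prostaglandin H2, which terminal synthases convert to prostaglandin E2 (Ptges, Ptges2) or prostacyclin (Ptgis), and the dehydrogenase encoded by Hpgd starts the breakdown of prostaglandin E2. Ptgs1 is expressed constitutively in many tissues, whereas Ptgs2 is induced by cytokines and mechanical stress, and in joints prostaglandin E2 is known for its part in inflammatory pain and in cartilage matrix turnover.

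At day 7 after rupture, Ptgs2 was higher in every injured library than in any other library, at 14.6-fold its naïve level. The inducible prostaglandin E synthase Ptges rose 1.73-fold over naïve cartilage, a call that was lost without day 7 injured replicate 3 (FDR 0.0724) and was not made against the contralateral knee (FDR 0.210). The constitutive cyclooxygenase Ptgs1, Ptges2, Ptgis, Hpgd and the 4 receptors did not pass the test against naïve cartilage together with the limit on fold change. At day 1 no gene of the set did so, nor did any other of the 21129 genes tested (0% by edgeR).

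The sequences just before the start sites of the cyclooxygenases and of Ptges are shown because Ptgs2 and Ptges were the members called at day 7, while Ptgs1 encodes the sister enzyme of Ptgs2. They are the RefSeq promoters of GRCm38.p6, 250 bases before to 50 bases after the start, 5′ to 3′ on the strand of the gene. Of the 10 genes, 8 had an entry, and Ptgis and Ptger1 had none. Capitals mark matches, on either strand, to 6 motifs. The C/EBP motif was searched as TTGCGCAA. The half-site of the cyclic AMP response element was searched as CGTCA. The E-box was searched as CACGTG. The AP-1 motif was searched as TGANTCA. The TATA box was searched as TATAAA, and the sixth was an NF-kB motif. Ptgs2 is on the plus strand at chr1:150099781-150100080, Ptgs1 on the plus strand at chr2:36230176-36230475, and Ptges on the minus strand at chr2:30903248-30903547, inside the longer span that GENCODE gives the gene.
Ptgs2: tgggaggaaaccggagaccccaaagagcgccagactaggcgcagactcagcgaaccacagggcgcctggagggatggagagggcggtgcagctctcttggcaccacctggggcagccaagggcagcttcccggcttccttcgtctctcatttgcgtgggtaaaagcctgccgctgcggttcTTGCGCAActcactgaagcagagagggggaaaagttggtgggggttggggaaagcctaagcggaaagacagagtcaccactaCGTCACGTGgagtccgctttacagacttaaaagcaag
Ptgs1: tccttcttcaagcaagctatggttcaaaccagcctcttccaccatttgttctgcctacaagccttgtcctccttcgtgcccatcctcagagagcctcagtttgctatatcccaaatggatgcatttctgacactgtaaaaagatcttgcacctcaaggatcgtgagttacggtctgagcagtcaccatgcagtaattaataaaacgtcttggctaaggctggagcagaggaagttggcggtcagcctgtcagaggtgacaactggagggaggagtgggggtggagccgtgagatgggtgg
Ptges: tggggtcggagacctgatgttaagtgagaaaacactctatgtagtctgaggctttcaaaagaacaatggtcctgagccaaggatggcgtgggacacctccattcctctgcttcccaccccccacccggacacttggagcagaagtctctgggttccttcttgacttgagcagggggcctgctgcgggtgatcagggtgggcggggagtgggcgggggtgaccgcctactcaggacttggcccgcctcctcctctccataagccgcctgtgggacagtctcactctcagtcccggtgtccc

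The Ptgs2 window held a C/EBP match that began 69 bases before the start, and a CGTCA match 14 bases after it that shares its last 2 letters with the CACGTG match at 17. The C/EBP motif was found in 0.183% of 32851 promoters of the same length, the half-site in 20.8%, the E-box in 7.15%, the AP-1 motif in 7.81%, the NF-kB motif in 1.63% and the TATA box in 13.6%. None of these letters were in the Ptgs1 and Ptges windows. In the 5 other promoters, Ptges2 held CACGTG 77 bases before its start and Hpgd held TATAAA 5 bases after it. These are matches of letters in a window, not sites shown to be bound.

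The identity of the tissue was checked first on marker genes. The chondrocyte collagen Col2a1 averaged 3237 CPM (counts scaled to library size by the TMM method) in naïve libraries, and none of the 3 defining chondrocyte markers was at 0 in any group. The 10 erythroid markers summed to between 31201 and 41782 CPM in naïve libraries, the 10 neutrophil markers to between 10018 and 14875 CPM and the 10 skeletal muscle markers to between 4915 and 15289 CPM, against 4088 to 7542 CPM for the 10 chondrocyte markers. The libraries labelled as chondrocytes thus held abundant transcripts of marrow, blood and muscle. In such bulk RNA, more cells of a type and more RNA per cell cannot be told apart.

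Other libraries stood apart before any comparison. Il6, the inflammatory cytokine, was at 2.03 CPM in naïve replicate 5, at 2.57 CPM in day 1 contralateral replicate 3 and at 3.21 CPM in day 1 injured replicate 2, and between 0.0690 and 0.924 CPM in the 15 others. Day 7 contralateral replicate 1 was the other exception, with chondrocyte markers summing to 13196 CPM and erythroid markers to 65061 CPM. For the 10 genes, where leaving them out moved a result across the FDR limit, both values are given. For single genes outside the set, values without them are not given.

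The first question was whether the prostaglandin genes differed between cartilage 7 days after rupture and naïve cartilage. Of the 10 genes, 2 were called higher (FDR of at most 0.05 and at least 1.5-fold, edgeR) and 0 lower, while 10.4% of the 21129 genes tested were called higher and 6.11% lower. By FDR alone 2 more passed, Ptgis and Ptger2, and 18.7% of all genes were then higher and 11% lower. In TMM-normalised CPM, every injured level of Ptgs2, Ptges and Ptgis exceeded every naïve one, as did 17.4% of all genes tested, while 10.8% had every injured level below and none of the 10 did. Without TMM and in TPM, Ptgs2 alone of the 3 kept its groups apart. On both of those scales Ptgs1 and Ptger2 had every injured level below every naïve one, and so did Ptger3 without TMM. The shares of all genes that lay apart on those scales were not computed, so these separations cannot be read as particular to these genes. Leaving out TMM shifted all genes together. The log2 ratio of injured over naïve means for the median gene was -0.04 with TMM and -0.34 without it.

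Ptgs2, the inducible cyclooxygenase (ENSMUSG00000032487, GRCm38 chr1:150100031-150108227), had a lowest level of 1.35, a median of 2.13 and a highest of 7.12 CPM in naïve libraries. The 3 day 7 injured libraries were at 32.3, 27.2 and 66.9 CPM. The naïve and the injured ranges did not overlap, and the lowest injured library was above the highest library of each other group. Means were 42.1 ± 21.6 CPM (SD, n = 3) in day 7 injured and 2.92 ± 2.11 CPM (SD, n = 6) in naïve libraries, a log2 fold change of 3.87 (SE 0.647, FDR 3.56e-04 by edgeR). The call held in all 9 fits that left out 1 library, with log2 fold changes from 3.37 to 4.38. The estimated counts behind the injured levels were 711, 429 and 1447. Without the 3 libraries of high Il6, left out after their levels were seen, the log2 fold change of Ptgs2 was 4.37 (SE 0.325, FDR 4.33e-07).

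Ptges, which encodes the inducible microsomal prostaglandin E synthase (ENSMUSG00000050737, GRCm38 chr2:30889471-30929863), was at 9.62, 9.50 and 12.7 CPM in the day 7 injured libraries. In naïve libraries its lowest level was 4.70, its median 5.82 and its highest 9.37 CPM. The ranges did not overlap, but the highest naïve library, replicate 4, lay just under the lowest injured one. Without TMM that naïve library was at 9.51 CPM, above injured replicates 1 and 2 at 8.07 and 7.87, and in TPM it was at 1.763 against 1.756 in injured replicate 1, so that the groups overlapped on both scales. Relative to the median gene, the log2 ratio of Ptges means was 0.82 both with and without TMM. The log2 fold change was 0.79 (SE 0.207, FDR 0.00968 by edgeR), and without day 7 injured replicate 3 it was 0.64 with an FDR of 0.0724, which is not a call. Without the libraries of high Il6 it was 0.77 (FDR 0.0210). Ptges was thus called on 3 injured libraries and on all but 1 of the sets that lacked a library.

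**Figure D1:**
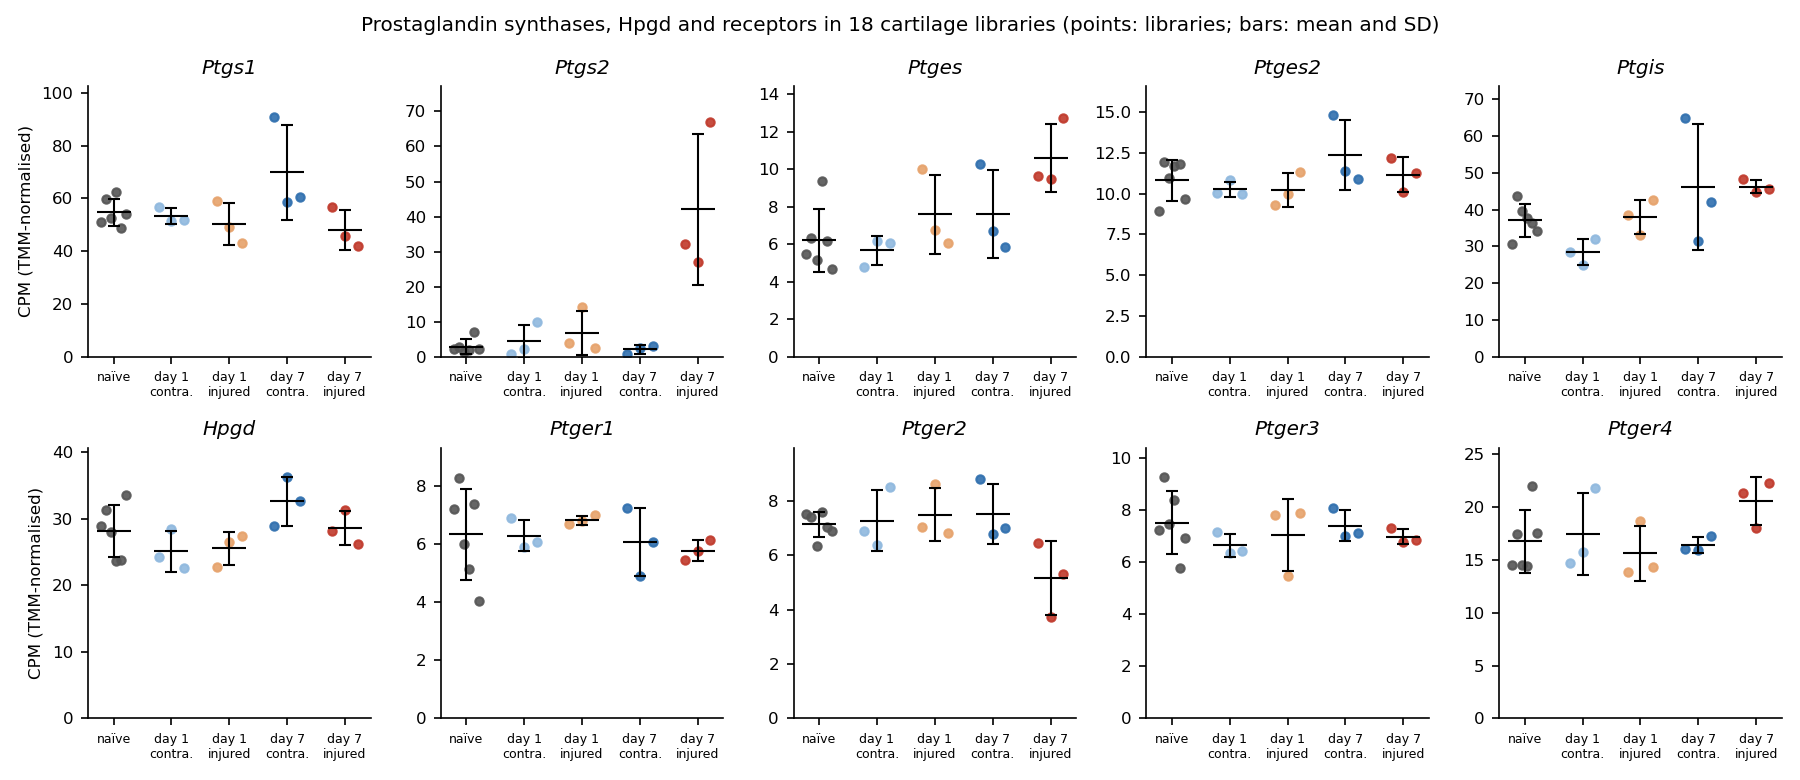
Levels of the 10 genes in CPM (TMM-normalised) by group, on linear axes that start at 0; each point is a library, horizontal bars are means and vertical bars SDs, cut at 0 where the SD exceeds the mean. Ptgs2 in the 3 day 7 injured libraries lies between 27.2 and 66.9 CPM, above every other library, of which the highest is at 14.1 CPM.

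The constitutive cyclooxygenase Ptgs1 (ENSMUSG00000047250, GRCm38 chr2:36230426-36252272) was at 56.6, 45.8 and 42.0 CPM in day 7 injured libraries and between 48.9 and 62.4 CPM in naïve ones, with a median of 53.3. These ranges overlapped, and the log2 fold change was -0.17 (SE 0.112, FDR 0.276). Without TMM the injured libraries were at 47.4, 37.95 and 35.7 CPM, all below the naïve range of 52.3 to 63.2 CPM. In TPM they were at 8.65, 8.18 and 9.30, all below the naïve range of 11.6 to 13.99. Relative to the median gene, the log2 ratio of Ptgs1 means was -0.14 both with and without TMM. Ptges2, a membrane-associated prostaglandin E synthase, averaged 11.2 ± 1.05 CPM (SD, n = 3) in day 7 injured and 10.8 ± 1.26 CPM (SD, n = 6) in naïve libraries, a log2 fold change of 0.06 (FDR 0.694). Per length, most of its level was assigned to a short retained-intron transcript, 72.7% in naïve and 78.3% in day 7 injured libraries, whereas protein-coding transcripts held 71.6% and 67.6% of the estimated counts that were tested.

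Ptgis, the prostacyclin synthase, was at 48.2, 44.8 and 45.6 CPM in day 7 injured libraries and between 30.7 and 43.8 CPM in naïve libraries. The injured libraries were all above the naïve ones by a small margin, with a log2 fold change of 0.33 (SE 0.108, FDR 0.0293) that stayed under the 1.5-fold limit. Without TMM the injured libraries were at 40.4, 37.2 and 38.8 CPM, inside the naïve range of 32.9 to 42.2 CPM, and the log2 ratio of Ptgis means was 0.02. Relative to the median gene, that ratio was 0.36 both with and without TMM, so the fall followed the shift of all genes. The FDR of Ptgis rose to 0.0966 without day 7 injured replicate 1 and to 0.173 with all 18 libraries fitted. Against day 7 contralateral libraries, Ptgis had a log2 fold change of 0.01 (FDR 0.987 by edgeR), with ranges that overlapped. Hpgd, the enzyme that inactivates prostaglandin E2, was at 28.2, 31.4 and 26.3 CPM in day 7 injured libraries. These lay inside its naïve range of 23.6 to 33.5 CPM, and the log2 fold change was 0.04 (SE 0.118, FDR 0.823).

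Among the receptors, Ptger2 and Ptger4 couple to Gs and raise cyclic AMP, Ptger3 couples mainly to Gi and Ptger1 acts through calcium. Ptger2 was at 6.44, 3.74 and 5.31 CPM in day 7 injured libraries and between 6.35 and 7.59 CPM in naïve libraries. Replicate 1 of the injured libraries lay within the naïve range and the other two below it. The log2 fold change of Ptger2 was -0.44 (SE 0.155, FDR 0.0444), under the fold limit, and it ranged from -0.62 (FDR 0.0135), a call, without day 7 injured replicate 1 to -0.26 (FDR 0.231) without day 7 injured replicate 2. Ptger4 was at 21.3, 17.98 and 22.3 CPM against a naïve range of 14.4 to 21.98 CPM, and the log2 fold change was 0.31 (SE 0.161, FDR 0.157). Its highest naïve library, replicate 5, lay within the injured range. Without the 3 libraries of high Il6, which were also high in Ptger4, it was 0.39 (SE 0.104, FDR 0.0124), past the FDR limit and still under the fold limit.

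Ptger1 and Ptger3 had the log2 fold changes nearest to 0 among the receptors. Ptger1 averaged 5.78 ± 0.350 CPM (SD, n = 3) in day 7 injured and 6.35 ± 1.57 CPM (SD, n = 6) in naïve libraries, a log2 fold change of -0.11 (FDR 0.679). Ptger3 averaged 6.97 ± 0.290 CPM (SD, n = 3) and 7.51 ± 1.21 CPM (SD, n = 6), a log2 fold change of -0.09 (FDR 0.689).

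**Figure D2:**
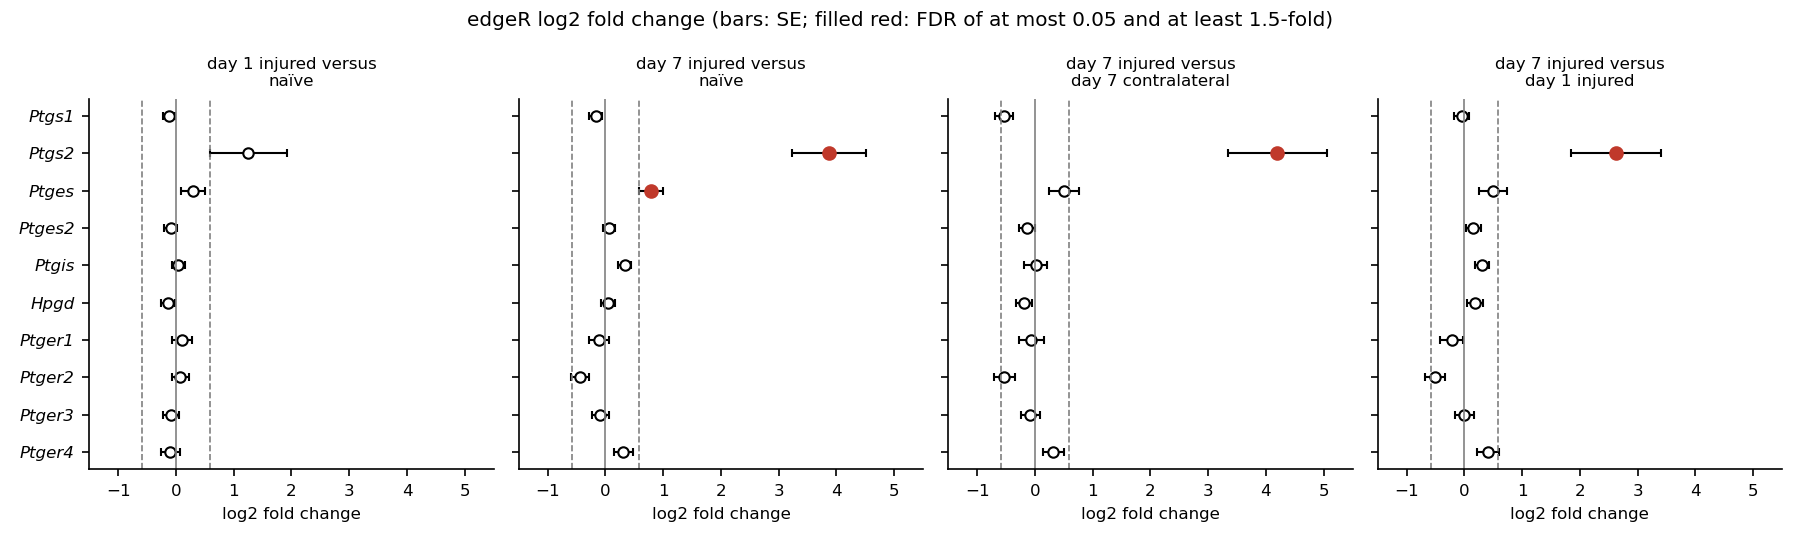
Log2 fold changes of the 10 genes in 4 comparisons (horizontal axis), with SE bars; dashed lines mark a 1.5-fold change and filled red points the genes called by edgeR. Ptgs2 is called in the 3 comparisons of day 7 injured libraries, at 3.87, 4.20 and 2.62, and Ptges only against naïve, at 0.79.

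The contralateral knee served as the second control at day 7. Of the 10 genes, 1 was called higher and 0 lower in injured against contralateral cartilage, while 9.33% of the 21262 genes tested were called higher and 3.23% lower. Ptgs2 was at 0.701, 2.58 and 3.21 CPM in the contralateral libraries, all under the injured ones, and its log2 fold change was 4.20 (SE 0.852, FDR 0.00194). It was called in all 6 fits that left out 1 library, at 3.70 to 4.57. Without the libraries of high Il6 it was 4.19 (SE 0.463).

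In TMM-normalised CPM, Ptgs1 and Ptger2 had levels in the day 7 contralateral libraries that did not overlap with the injured ones. Ptgs1 was at 90.8, 58.6 and 60.6 CPM on the contralateral side, all above the injured libraries, and its log2 fold change of -0.54 (SE 0.161, FDR 0.0261) was just short of the fold limit. By FDR alone it was lower, as were 6.16% of all genes, while 12.5% were higher. Replicate 1 was far above the other two on this scale only: without TMM the 3 libraries were at 63.2, 63.2 and 61.1 CPM, and in TPM replicate 1 was the lowest, at 7.35 against 17.1 and 14.3. In replicate 1, protein-coding transcripts held 56.05% of its estimated Ptgs1 counts, against 87.9% to 91.2% in the naïve libraries. With protein-coding transcripts alone the change was -0.27 and Ptgs1 did not pass, whereas it was called at -0.67 without contralateral replicate 2, at -0.65 without contralateral replicate 3 and at -0.67 without injured replicate 1. Without contralateral replicate 1 it was -0.29 (FDR 0.178).

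Ptger2 was at 8.80, 6.77 and 6.99 CPM on the contralateral side, and its log2 fold change was -0.53 (SE 0.180, FDR 0.0506). It was called lower without injured replicate 1 (-0.72) and without contralateral replicate 2 (-0.61), and was at -0.34 (FDR 0.227) without injured replicate 2. In TMM-normalised CPM, injured libraries lay all above the contralateral ones for Ptgs2 and Ptger4 and all below for Ptgs1 and Ptger2, and 18.6% of all genes tested lay all above and 14.3% all below. Without TMM, Ptger4 overlapped, at 17.9, 14.9 and 19.0 CPM in injured and 11.2, 17.1 and 17.5 CPM in contralateral libraries. On that scale Ptges lay all above and Ptges2 all below, the latter by a narrow margin of 10.2 against 10.3 CPM. In TPM, Ptgs1, Ptger2 and Ptger4 overlapped, and Ptger1 lay all below. Protein-coding transcripts held 71.4% to 100% of the estimated Ptger1 counts in injured and 45.4% to 58.3% in contralateral libraries. The shares of all genes that lay apart were not computed without TMM or in TPM, so these separations cannot be read as particular to these genes. Ptges, at 10.3, 6.68 and 5.88 CPM on the contralateral side, overlapped with the injured libraries in TMM-normalised CPM, with a log2 fold change of 0.50 (SE 0.261, FDR 0.210). With 1 library left out the value ran from 0.32 to 0.78, the latter without contralateral replicate 1 (FDR 0.0576), and none of these fits made a call. The comparisons with naïve and with contralateral libraries share the injured libraries and are not independent.

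The contralateral libraries themselves were compared with the naïve ones. No gene of the set was called at day 7 or at day 1, nor was any other gene by edgeR (0%), where 3220 genes at day 7 and 554 at day 1 had an unadjusted p under 0.05 and DESeq2 called 31 and 2. The number at day 7 depended on single libraries. It was 1201 without day 7 contralateral replicate 1 and 4483 without day 7 contralateral replicate 3. Of the 10 genes, Ptgs1 at day 7 was the 1 with an unadjusted p under 0.05, with a log2 fold change of 0.35 (FDR 0.264) that was 0.12 (FDR 0.947) without contralateral replicate 1, and Ptgis at day 1, with -0.37 (FDR 1.00), was the other. Levels overlapped for all 10 genes on both days, while all contralateral libraries lay above for 1.93% of genes at day 7 and 0.629% at day 1, and below for 2.41% and 0.753%.

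At day 1, the question was whether the set moved before day 7. None of the 10 genes was called in injured against naïve libraries and none of all 21129 genes was (0% in each direction by edgeR), while every injured level lay above every naïve one for 1.07% of genes and below for 1.01%, and for none of the 10. Of all genes, 958 had an unadjusted p under 0.05, limma-voom called 0 and DESeq2 15. The 958 became 511 without day 1 injured replicate 3 and 1595 without day 1 injured replicate 2. Ptgs2 was at 4.00, 14.1 and 2.48 CPM in day 1 injured libraries, at 0.930, 2.32 and 9.88 CPM in day 1 contralateral ones and at 1.35 to 7.12 CPM in naïve ones. All 3 groups overlapped, and in each of them the highest library was the one that also held the most Il6. The log2 fold change of Ptgs2 was 1.25 against naïve (SE 0.666, FDR 0.987) and 0.62 against contralateral libraries (SE 0.765, FDR 0.902). Against naïve libraries it ran from 0.17 without day 1 injured replicate 2 to 1.77 without naïve replicate 5. Against contralateral libraries the sign turned without day 1 injured replicate 2 (-0.47), and the value was 2.10 without day 1 contralateral replicate 3. Without the 3 libraries of high Il6 the log2 fold changes were 0.70 and 1.02, still with no call.

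Against the day 1 contralateral libraries none of the 10 genes and none of the 21129 tested was called (0%). For that comparison 1383 genes had an unadjusted p under 0.05, and DESeq2 and limma-voom each called 0. With 1 library left out, that number ran from 530 (day 1 injured replicate 3) to 2609 (day 1 injured replicate 2). Ptgis, at 38.5, 33.3 and 42.5 CPM in injured and 28.6, 25.0 and 32.1 CPM in contralateral libraries, had injured libraries all above the contralateral ones, which held for 5.1% of all genes (6.08% lay all below, with none of the 10), with a log2 fold change of 0.41 (SE 0.125, FDR 0.755). Ptges was at 10.01, 6.73 and 6.04 CPM in day 1 injured and at 4.79, 6.18 and 6.07 CPM in contralateral libraries, ranges that overlapped (log2 fold change 0.42, FDR 0.779). The absence of calls at day 1 does not show that these levels were alike, since for Ptgs2 the SE alone was 0.666.

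Between injured libraries of day 7 and day 1, Ptgs2 was the 1 gene of the 10 called higher and none was called lower, against 9.04% of all genes higher and 6.38% lower. Its log2 fold change was 2.62 (SE 0.777, FDR 0.0237). Leaving out day 1 injured replicate 1 (FDR 0.0842), day 1 injured replicate 3 (FDR 0.0841) or day 7 injured replicate 3 (FDR 0.0927) ended the call, with values from 2.12 to 3.70 over the 6 libraries left out. Without the libraries of high Il6 it was 3.68 (SE 0.443, FDR 9.07e-05). Ptger2 was at 7.04, 8.61 and 6.83 CPM in day 1 injured libraries, all above the day 7 injured ones, with a log2 fold change of -0.51 (SE 0.174, FDR 0.0441) that was under the fold limit. By FDR alone 16.2% of all genes were higher and 8.2% lower. Without day 7 injured replicate 1 Ptger2 was called, at -0.70, while without day 7 injured replicate 2 it was -0.33 (FDR 0.175) and without the libraries of high Il6 -0.42 (FDR 0.123). Ptger4, with a log2 fold change of 0.41 (FDR 0.121), was at 0.54 (FDR 0.0125) without the libraries of high Il6, under the fold limit. Ptgs2 and Ptgis lay all above and Ptger1 and Ptger2 all below the day 1 injured libraries, and 22.9% of all genes tested were all above and 17.5% all below. For Ptgis that held in TMM-normalised CPM only, and without TMM its ranges overlapped. In TPM Ptgis was at 9.38, 10.87 and 12.2 in day 7 injured libraries, all below the day 1 injured ones at 13.98, 13.3 and 21.1. Ptgs1, Ptges2, Hpgd, Ptger1, Ptger2 and Ptger3 also lay all below in TPM, so that position was not particular to Ptgis. The share of all genes that lay all below was not computed in TPM.

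Whether the injury effect on Ptgs2 (injured over contralateral) was larger at day 7 than at day 1 was tested as a difference of log2 fold changes. It was 3.57 (SE 1.11, unadjusted p = 0.00489, FDR 0.0857 by edgeR) and not called, so that a difference between the days was not established for the injury effect. None of the other 9 genes was called either, and 3.53% of the 21262 genes tested were called higher and 0.245% lower. Ptgs2 was called by DESeq2 (FDR 0.0442), without day 1 contralateral replicate 1 (4.04, FDR 0.0445) and without day 1 injured replicate 2 (4.66, FDR 0.0297), whereas without day 1 contralateral replicate 3 the difference was 2.11. Without all 3 libraries of high Il6 it was 3.18 (SE 0.723, FDR 0.0275), a choice made after their Ptgs2 levels were seen.

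Levels of different genes were compared in TPM, the share of transcripts after correction for their length. In naïve libraries Ptgs1 had the highest level of the 10, at 13.1 ± 0.886 TPM (SD, n = 6), then Ptgis at 10.5 ± 0.994 and Hpgd at 9.49 ± 1.36. The ranges of neighbours in this order overlapped down to Hpgd, which was separate from Ptges2 at 3.56 ± 0.605 TPM. Ptger4 was the highest receptor, at 2.72 ± 0.585 TPM, and was separate from Ptger3 at 1.49 ± 0.116. Ptges at 1.44 ± 0.263, Ptger2 at 1.18 ± 0.114 and Ptger1 at 0.795 ± 0.231 TPM followed, each with a range overlapping that of the next, and Ptgs2 was last at 0.501 ± 0.359 TPM.

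In day 7 injured libraries Ptgs2 ranked 4 of the 10, at 4.17 ± 2.59 TPM (SD, n = 3), with a range that overlapped both Hpgd above it and Ptges2 below it. Ptgis was first at 10.8 ± 1.42 TPM, and its range no longer overlapped that of Ptgs1 at 8.71 ± 0.564. The margin was narrow, with the lowest Ptgis library at 9.38 TPM and the highest Ptgs1 library at 9.30 TPM. CPM without TMM differs from the normalised CPM in its reference. TPM differs in its reference and also in the correction for transcript length. The median gene of 19962 had a log2 ratio of day 7 injured over naïve means of -0.37 in TPM, -0.34 in CPM without TMM and -0.04 in TMM-normalised CPM. Relative to that median gene, Ptgs1 was at -0.23 in TPM, Ptgs2 at 3.42 and Ptges at 0.89. The rise of Ptgs2 was thus smaller in TPM than its log2 fold change of 3.87 in the tested counts.

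**Figure D3:**
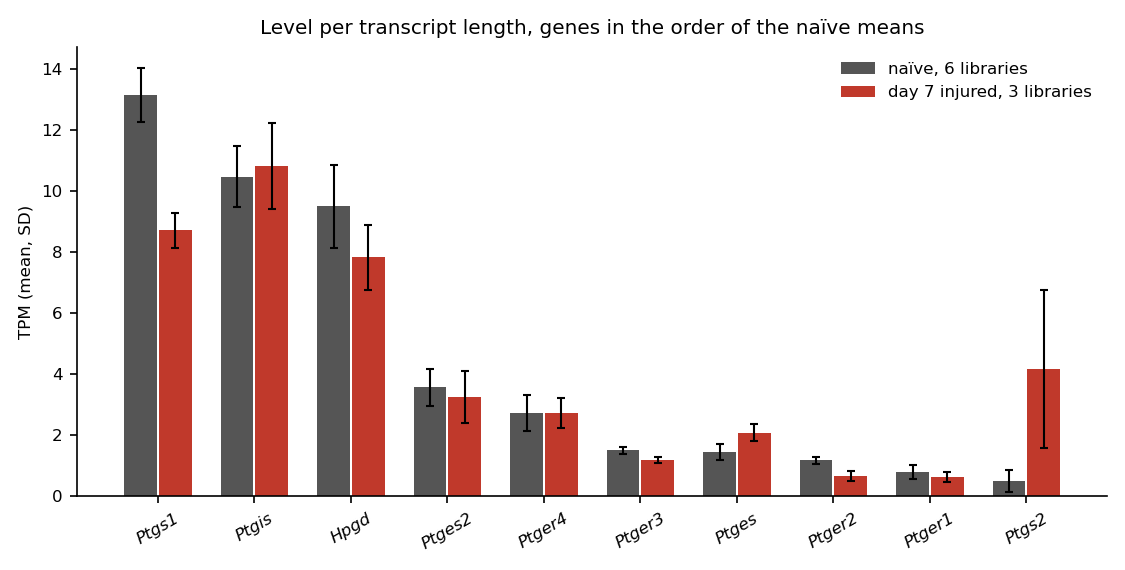
Mean level per length of the 10 genes in TPM (vertical axis, from 0) in naïve and day 7 injured libraries, ordered by the naïve means, with SD bars. Ptgs2 is last in naïve libraries, at 0.501 TPM, and ranks 4 in day 7 injured ones, at 4.17 TPM.

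A share within a library does not depend on that reference. Ptgs2 made up between 1.28% and 7.77% of the summed TPM of both cyclooxygenases in naïve libraries, with a median of 3.08%. In day 7 injured libraries the share was 23.7%, 24.6% and 43.5%, above the highest share in any other group, which was 11.6% in day 1 injured replicate 2. The sum of both was 11.3, 10.8 and 16.5 TPM in day 7 injured and between 12.1 and 14.99 TPM in naïve libraries, so that the sums overlapped while the shares did not. The ratio of Ptges to Hpgd, the prostaglandin E2 synthase over the enzyme that removes its product, was 0.264, 0.254 and 0.277 in day 7 injured libraries and 0.102 to 0.227 in naïve ones. It lay above the ratios of both contralateral groups as well, the highest of which was 0.242, and overlapped with day 1 injured libraries, at 0.319, 0.158 and 0.172.

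**Figure D4:**
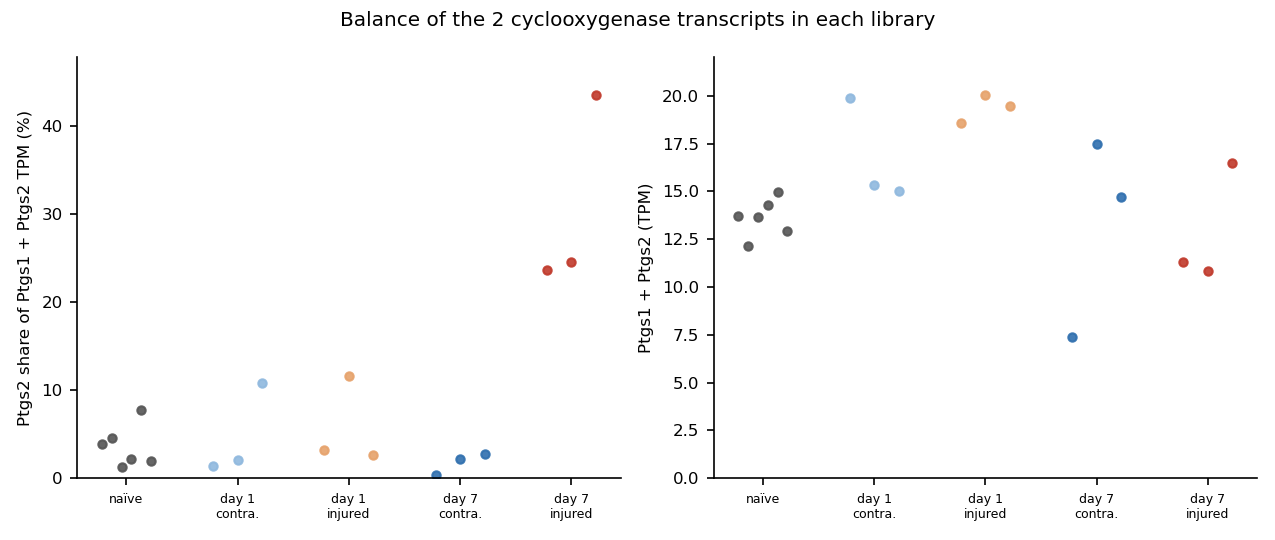
Share of Ptgs2 in the summed TPM of Ptgs1 and Ptgs2 (left, in percent) and that sum (right, in TPM) for each library, on axes that start at 0. The 3 day 7 injured libraries have shares of 23.7% to 43.5%, and the highest other library is at 11.6%.

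Transcripts of the genes were inspected as well. One protein-coding transcript took the whole Ptgs2 level in day 7 injured, day 7 contralateral and day 1 injured libraries, while it took 68.3% in naïve and 78.7% in day 1 contralateral libraries, where a second protein-coding transcript held the rest. Protein-coding transcripts of Ptgs1 held 94.3% to 96.9% of the estimated counts of the gene in day 7 injured libraries, above its range of 87.9% to 91.2% in naïve ones. Such splits are estimates from few reads for Ptgs2 in naïve libraries, where the whole gene had 39 to 179 estimated counts.

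The libraries with high Il6 had a pattern of their own. Ptger4 was at 21.98 CPM in naïve replicate 5, at 21.9 in day 1 contralateral replicate 3 and at 18.6 in day 1 injured replicate 2, the highest level of each of these groups. Il1r1, the receptor of interleukin 1, was at 41.7, 45.2 and 42.7 CPM in the same 3 libraries, and at 45.4, 44.5 and 56.0 CPM in day 7 injured ones. Slco2a1, which encodes the prostaglandin transporter, was at 34.8, 35.3 and 31.3 CPM in them, between day 7 injured replicates 1 and 2 at 26.5 and 26.7 CPM and day 7 injured replicate 3 at 39.7 CPM. Il6 was higher in each of the 3 than in any day 7 injured library, whereas Ptgs2 was lower. Il6, Il1r1 and Slco2a1 were singled out after their values were seen, and their part in the Ptgs2 levels was not tested.

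**Figure D5:**
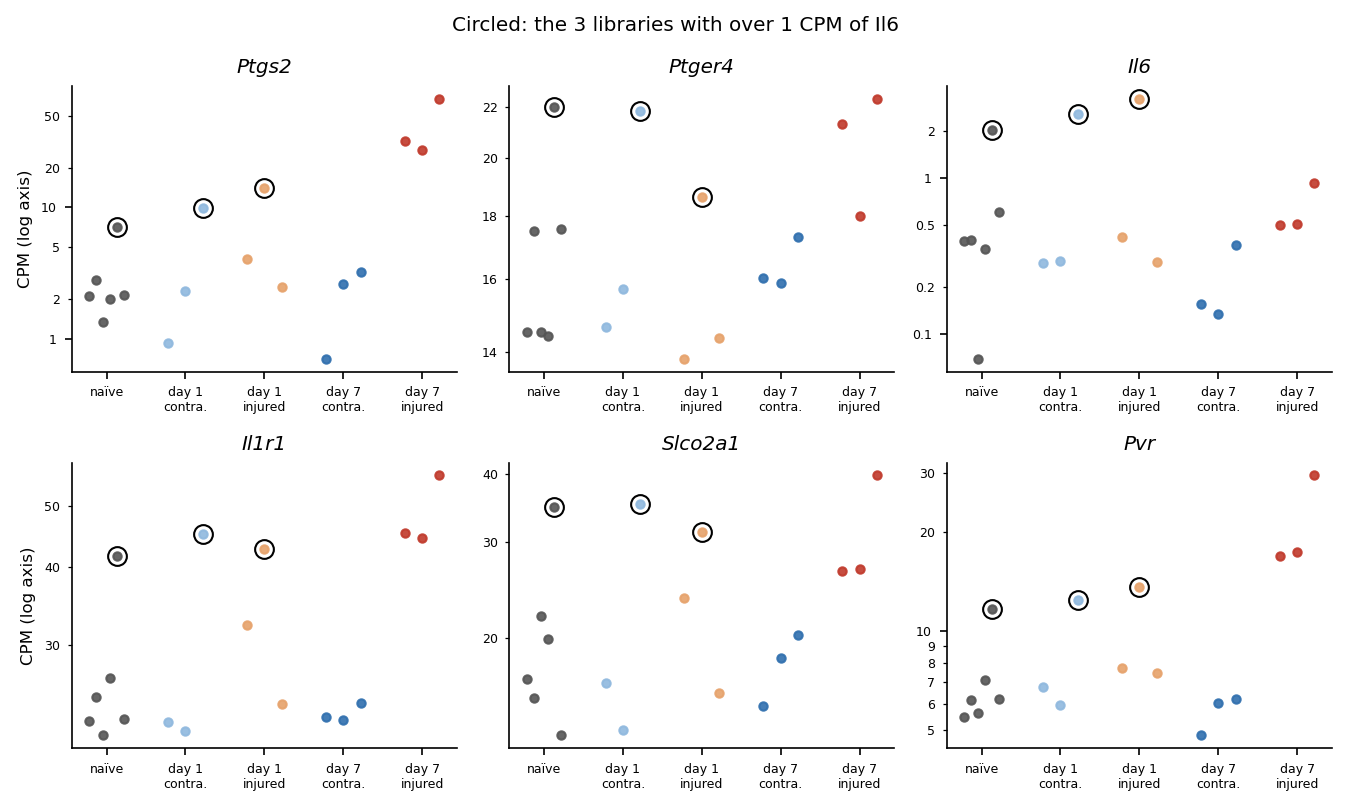
Levels in CPM (log axes) of Ptgs2, Ptger4 and 4 other genes in the 18 libraries by group; circles mark the 3 libraries with over 1 CPM of Il6. In each group that holds a circled library, that library has the highest Ptgs2 and Ptger4 level, and for Ptgs2 all 3 lie below the day 7 injured libraries, the lowest of which is at 27.2 CPM.

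Over the 18 libraries, the genes whose log2 CPM followed that of Ptgs2 most closely, of 15984 compared by Pearson's r, were Ugdh (0.974), which makes UDP-glucuronic acid for glycosaminoglycans, the adhesion receptor Pvr (0.959) and Skil (0.958), a repressor of TGF-beta signalling. Ptges was most like the activin antagonist Fst (0.909), and Ptger4 most like Nfkb2 (0.915). For Ptgs1 the closest was Cdca7 (0.943), for Ptgis Lrp5 (0.912), for Ptges2 Tom1 (0.905), for Ptger3 Ndufb5 (0.898), for Ptger2 Rassf7 (0.879), for Hpgd Gimap4 (0.845) and for Ptger1 Atpaf2 (0.784). These values describe libraries that share groups, mice and composition, and they were picked as the highest of many.

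Of 17 other genes of the prostanoid pathway, 15 were in the files and 13 were tested. Between day 7 injured and naïve libraries 1 was called higher and 0 lower, with a median log2 fold change of 0.21 against -0.04 over all genes tested, of which 10.4% were called higher and 6.11% lower. Against day 7 contralateral libraries the shares over all genes were 9.33% and 3.23%, and the counts of the lists that follow stand beside the same shares. It was Ptgfr, the prostaglandin F receptor, at 17.4 ± 2.24 CPM (SD, n = 3) in day 7 injured and 8.30 ± 1.85 CPM (SD, n = 6) in naïve libraries, a log2 fold change of 1.08 (SE 0.184, FDR 4.03e-04). Against contralateral libraries Ptgfr was also called higher, at 1.20 (FDR 7.81e-04), and the thromboxane receptor Tbxa2r lower, at -0.98 (FDR 0.0164). The cytosolic prostaglandin E synthase Ptges3 had a log2 fold change of 0.24 against naïve (FDR 0.0582), and the transporter Slco2a1 one of 0.62 (FDR 0.164), with 34.8 CPM in naïve replicate 5 and at most 21.96 CPM in the other naïve libraries.

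Of 20 genes that release or handle arachidonic acid, 14 were tested and 1 was called lower and 0 higher against naïve libraries, with a median of 0.09. The one called was the phospholipase Pla2g4c, at -0.66 (SE 0.151, FDR 0.00410), and it was also lower against contralateral libraries, at -0.87 (FDR 0.00422), where Pla2g2e was higher, at 1.71 (FDR 0.00881). Pla2g4a, the main cytosolic phospholipase of the pathway, averaged 30.7 ± 1.19 CPM (SD, n = 3) in day 7 injured and 29.1 ± 1.72 CPM (SD, n = 6) in naïve libraries, a log2 fold change of 0.09 (FDR 0.487).

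The leukotriene branch, which draws on the same arachidonic acid through lipoxygenases, had 15 genes, of which 14 were tested. Against naïve libraries 0 were called higher and 2 lower, with a median of -0.38. These were the leukotriene receptor Cysltr2, at -0.71 (FDR 0.00310), and the epidermal lipoxygenase Aloxe3, at -1.07 (FDR 0.0356). Against day 7 contralateral libraries 6 of the 14 were lower and 0 higher, while 3.23% of all genes were lower and 9.33% higher, and the median was -0.66 against -0.05 over all genes. They were Alox5 (-0.59), Alox5ap (-0.72), Ltb4r1 (-0.81), Cysltr2 (-0.84), Alox15 (-0.84) and Alox12 (-0.62), many of them known from white blood cells and Alox12 from platelets. Neutrophil markers moved with them: 2 of 10 were lower against naïve and 4 of 10 against contralateral libraries, where their sums were 10773, 8295 and 7858 CPM in injured and 11690, 16045 and 14360 CPM in contralateral libraries, with Ngp the most abundant gene and none of the defining markers at 0. Platelet and megakaryocyte markers were also lower against contralateral libraries for 4 of 10, erythroid markers for 6 of 10 and adipocyte markers for 5 of 10, and 0 of these were higher. The part of these cell types in the result was not tested.

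Among 15 inducers of Ptgs2 and factors that act on its gene, all tested, 1 was called higher and 0 lower against naïve libraries, with a median of 0.04. It was Il1r1, at 0.88 (SE 0.249, FDR 0.0153), and against contralateral libraries it was called at 1.06 (FDR 0.0128), while the cytokine Il1a was lower there, at -0.73 (FDR 0.0287). Il1b had a log2 fold change of 0.16 (FDR 0.688), Tnf one of -0.23 (FDR 0.301) and Cebpb, a C/EBP factor, one of 0.02 (FDR 0.964) against naïve libraries. Il6 was at 0.499, 0.507 and 0.924 CPM in day 7 injured libraries, at 2.03 CPM in naïve replicate 5 and at 0.0690 to 0.605 CPM in the other naïve libraries, and its log2 fold change of 0.02 (FDR 0.988) includes that replicate. Of 20 genes that carry the signal of prostaglandin E2 receptors inside the cell, 2 were called higher and 0 lower, with a median of 0.17. They were Gnas, the Gs alpha subunit, at 0.91 (SE 0.0832, FDR 1.18e-06) and the adenylyl cyclase Adcy3 at 0.74 (FDR 2.98e-04), and against contralateral libraries Gnas alone was called, at 0.87 (FDR 1.19e-05). In day 1 injured against naïve libraries, 0 genes of these 5 lists were called in either direction.

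Markers of other cell types moved in the day 7 injured libraries together with Ptgs2 and Ptges. Of 10 synovial fibroblast markers 7 were called higher against naïve libraries and 0 lower, where 10.4% of all genes were higher and 6.11% lower. The 4 of lowest p had log2 fold changes of 3.65 (Col3a1), 1.91 (Thy1), 1.09 (Fap) and 1.32 (Pdgfra). Their sum was 74695, 70700 and 81199 CPM in day 7 injured and between 11239 and 18833 CPM in naïve libraries, most of it Col1a1, which bone and fibrocartilage also express, and none of the 3 defining markers was at 0. In day 7 contralateral replicate 1, named above as an exception, that sum was 56895 CPM. Ptgs2 was there at 0.701 CPM, the lowest of all 18 libraries, from 9 estimated counts. Col1a1 averaged 29798 CPM in the day 7 contralateral libraries, of a mean sum of 32754 CPM. Ptges was at 10.3 CPM in replicate 1, within its injured range. That position depends on the scaling, since without TMM Ptges was at 7.16 CPM in that library, under the injured libraries, as it was in TPM at 0.898, while naïve replicate 4 overlapped with the injured libraries on both scales. Endothelial markers were higher for 5 of 10 and smooth muscle and pericyte markers for 4 of 10, and 0 of either were lower.

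Macrophage markers summed to 2955, 2694 and 2411 CPM in day 7 injured libraries, inside the naïve range of 2285 to 3011 CPM, with 1 of 10 called higher and 0 lower. Chondrocyte markers were higher for 2 of 10 and lower for 0, with sums of 6386, 7598 and 7820 CPM in day 7 injured and 4088 to 7542 CPM in naïve libraries. Against 10.4% of all genes higher and 6.11% lower, adipocyte markers were lower for 5 of 10, erythroid for 6, platelet and megakaryocyte for 4, neutrophil for 2 and skeletal muscle for 1, and 0 of these were higher. Of 10 osteoblast and osteocyte markers 1 was higher and 2 were lower, and of 9 mast cell markers tested none was called in this comparison with naïve libraries. The part of any cell type in the levels of Ptgs2 and Ptges was not tested.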

How the data were processed

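RNA of 18 libraries was measured by stranded total RNA-Seq after ribosomal depletion. The authors trimmed reads with Trimmomatic and pseudo-aligned them with Kallisto to GRCm38; the labels also name DESeq2, and a human build that the mouse transcript identifiers contradict. The deposited files give, for each of 137436 transcripts, estimated counts and TPM, a share of transcripts corrected for length, with transcript lengths. One library of low mapping, not named, was removed by the authors.

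Here, estimated counts were summed per gene with GENCODE M21 (135107 transcripts matched, 98.3%; unmatched ones held 0.667% to 3.9% of counts), rounded, filtered with filterByExpr and tested with edgeR 4.0.16 (R 4.3.3; TMM, quasi-likelihood, Benjamini-Hochberg adjustment over all genes tested). Genes were called at an FDR up to 0.05 with a fold change of 1.5 or more. SEs were derived from the F statistic. Comparisons without day 7 contralateral libraries were fitted on the 15 other libraries, the rest on all 18. CPM used TMM over 18 libraries, and 3 counts equalled 0.0718 to 0.187 CPM, which covers counting error only. Deposited TPM, summed per gene, served for levels between genes. Fits were tested on simulated data.

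No replicate pair was within sampling noise: the chi-square per gene was 16.3 to 279 over 27 pairs, and at most 73.7 without the pairs of day 7 contralateral replicate 1. Replicates were numbered in accession order. Members and gene lists were chosen with earlier results of these data known. All 10 members were named, with every called gene of the prostanoid and leukotriene lists, the 4 of lowest p in lists with more than 6 called, and the genes most alike by r (mean of at least 1 CPM). Other named list genes were chosen after their values were seen. Alternatives were DESeq2 1.42.0, limma-voom (limma 3.58.1), DESeq2 size factors, no low-count filter, a length offset, protein-coding transcripts, FDR alone, other sets of libraries, each library left out and, added after seeing the data, the 3 libraries with over 1 CPM of Il6 left out. Whether Kallisto used the strand of reads is not given in the sources used here, so reads of genes that overlap on opposite strands cannot be told apart. A withheld item is not reported here.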

Additional observations from a re-analysis of the deposited data

Results flagged for a closer look

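The levels of the 10 genes in the 6 naïve libraries were checked for a library far from the others, and 2 of 10 such groups had one. The rule flags about 1 in 20 by chance when values are normally distributed. These levels were CPM on a linear scale, and the 10 groups were the same 6 libraries. An excess over chance was therefore not shown. Ptgs2 was at 7.12 CPM in naïve replicate 5, and the gap to the next library was 0.751 of the range, above the critical value of 0.625. The same library was the naïve one with the most Il6, and without it and the 2 other libraries of high Il6 the log2 fold change of Ptgs2 in day 7 injured over naïve libraries was 4.37 (FDR 4.33e-07 by edgeR). Ptges was at 9.37 CPM in naïve replicate 4, with a gap of 0.646 of the range, just above the same critical value. Without TMM that library was at 9.51 CPM and the next at 6.90 CPM. In TPM they were closer, at 1.763 and 1.567. The gap was not tested on those scales.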

How the results depend on the processing

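Of 1380 refits of a gene in a comparison, 19 changed a call, in 8 of 80 pairs of gene and comparison. No called gene changed sign, and 104 refits of an uncalled gene did. The number of the 10 genes called against naïve libraries at day 7 was 2, rose to 4 by FDR alone and ranged from 1 to 3 with 1 library left out. Between day 7 and day 1 injured libraries it was 1, then 2 by FDR alone and 0 to 2 with 1 library left out. Against day 7 contralateral libraries it was 1, then 2 by FDR alone and 1 to 3 with 1 library left out. For the difference of the injury effects it was 0, then 1 with DESeq2, 1 without the libraries of high Il6 and 0 to 1 with 1 library left out. Another scaling moved 12 of 20 level ratios by more than 1 SD. That count includes a shift of all genes together, so it does not show that single genes moved relative to others. In day 7 injured over naïve libraries, the median gene had a log2 ratio of -0.04 with TMM and -0.34 without it. Over all genes, FDR alone gave 6291 calls in place of 3498 against naïve libraries and 5159 in place of 3257 between the days, where protein-coding transcripts gave 2076. Against day 7 contralateral libraries 686 genes were called lower. That number was 281 without day 7 injured replicate 3, 434 without day 7 contralateral replicate 1 and 1058 without day 7 contralateral replicate 3. It was 279 with only the compared groups fitted. The difference of injury effects had 802 calls, then 496 without day 1 injured replicate 1, 467 without day 1 contralateral replicate 3 and 402 without day 7 injured replicate 3. DESeq2 called 15 genes in day 1 injured, 2 in day 1 contralateral and 31 in day 7 contralateral against naïve libraries, where edgeR called 0. The cause was not tested. No paired analysis was possible because the labels do not say which libraries share mice. Depth limits Ptgs2 most, with as few as 9 estimated counts in a library.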
